A study of Mus musculus with 2 samples.

Results

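The microRNAs miR-128 and miR-218 are each encoded by 2 gene copies that lie in introns of paralogous protein-coding genes. The members described here are Mir128-1, Mir128-2, Mir218-1 and Mir218-2, taken by GENCODE M21 symbol from a table of 2202 annotated microRNA genes. The rule that names them uses no measured value, but it was set with earlier results of these data known. All 4 were measured and all 4 were detected, which here means at least 10 reads in both libraries, a level that 389 genes of the table reached. The data are 2 microRNA-seq libraries of small RNA from adult male mice of strain 5xFAD/CAST at 8 to 10 months of age, from tissue that the labels call a layer of the hippocampus. The name 5xFAD stands for a transgenic model of Alzheimer disease whose transgenes are driven by the neuronal Thy1 promoter, and CAST for a wild-derived strain. In the labels they are numbered biological replicates 1 and 2, with a tissue record each and a single donor record, so it is open whether 1 or 2 mice gave the tissue. No library without the transgenes was analysed here, so nothing below is an effect of genotype, strain or age. The spread between the libraries may be technical.

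A microRNA gene is transcribed into a longer RNA that folds into a hairpin, and cutting of the hairpin leaves a short mature RNA from its 5′ arm, its 3′ arm or both. The bases near the 5′ end of the mature RNA, the seed, pair with target mRNAs and lower their output. MiR-128 is one of the microRNAs enriched in brain neurons, and in mice loss of Mir128-2 in neurons is known to raise excitability and to cause fatal seizures. MiR-218 is best known for its very high level in motor neurons, and it is also expressed in the hippocampus.

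The mature sequences show what the copies of a pair share and where they differ. The main mature form is identical in the copies of each pair, and the form from the opposite arm differs between them. They are printed 5′ to 3′ from RefSeq (GRCm38.p6), with the seed, bases 2 to 8, in capitals.
miR-128-3p (both copies): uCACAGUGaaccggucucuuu
miR-128-1-5p (Mir128-1): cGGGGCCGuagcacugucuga
miR-128-2-5p (Mir128-2): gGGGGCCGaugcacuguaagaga
miR-218-5p (both copies): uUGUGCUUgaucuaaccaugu
miR-218-1-3p (Mir218-1): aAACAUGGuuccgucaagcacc
miR-218-2-3p (Mir218-2): cAUGGUUCugucaagcaccgcg
The 5p forms of miR-128 share a seed with each other although their full sequences differ, with 16 matches in 23 aligned columns. The 3p forms of miR-218 have different seeds. No other mature mouse microRNA of the RefSeq table has the seed of miR-128-3p. Its bases 1 to 7 are the seed of miR-27a-3p and miR-27b-3p, shifted by 1 base. The seed of miR-218-5p occurs in 1 other mature microRNA, miR-7002-3p.

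The whole hairpins set out how much sequence separates the copies of a pair. In the lines that follow the capitals mark the longest stretch that both copies of a pair hold.
Mir128-1 (chr1:128202361-128202430, plus strand): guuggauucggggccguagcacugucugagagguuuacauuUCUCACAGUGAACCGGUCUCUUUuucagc
Mir128-2 (chr9:112118636-112118711, minus strand): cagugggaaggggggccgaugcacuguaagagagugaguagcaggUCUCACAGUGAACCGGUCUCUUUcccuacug
Mir218-1 (chr5:48223942-48224051, plus strand): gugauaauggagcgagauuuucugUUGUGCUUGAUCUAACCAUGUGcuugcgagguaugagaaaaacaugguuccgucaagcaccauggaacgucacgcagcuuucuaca
Mir218-2 (chr11:35616816-35616925, plus strand): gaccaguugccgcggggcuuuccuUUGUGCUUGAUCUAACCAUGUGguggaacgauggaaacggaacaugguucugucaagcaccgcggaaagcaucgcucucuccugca
The miR-128 copies share 23 bases, which are miR-128-3p with the 2 bases before it, and their whole hairpins are 71.4% identical in a global alignment. The miR-218 copies share 22 bases, which are miR-218-5p with the 1 base after it, and their hairpins are 70.9% identical. The 4 RefSeq hairpins are the same as the GENCODE M21 transcripts of these genes. GC content was 50.0% in the Mir128-1 hairpin, 56.6% in Mir128-2, 45.5% in Mir218-1 and 54.5% in Mir218-2. The minimum free energy of folding computed by RNAfold was -29.3 kcal/mol for Mir128-1, -37.3 for Mir128-2, -36.6 for Mir218-1 and -42.3 for Mir218-2.

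These sequences set which reads can be placed at a single copy. A read that starts at the annotated 5′ end of miR-128-3p must be 22 bases long, 1 base longer than the mature form, to fit only 1 annotated microRNA gene. For miR-218-5p the read must be 23 bases long, 2 bases past the mature end, or start 1 base earlier. Reads from the opposite arms fit 1 gene from the shortest length examined, 18 bases, as drawn in the map of the hairpins. Of all windows of 22 bases in a hairpin, 2 of 49 in Mir128-1, 2 of 55 in Mir128-2 and 1 of 89 in each miR-218 copy also occur in another microRNA gene. The deposited tables count reads per hairpin, so reads of its 5′ and 3′ arms cannot be separated in them. Reads that fit several places were 38.2% of all reads in replicate 2 and 41.6% in replicate 1 and carry no gene name. A read of exactly the 21 bases of miR-128-3p or miR-218-5p fits both copies and so is of this kind. The sources used here do not give the aligner or its settings, so the placement of such reads was not checked. The values below are therefore levels of assigned reads, and they give neither the total amount of miR-128 or miR-218 nor the output of a copy.

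**Figure D1:**
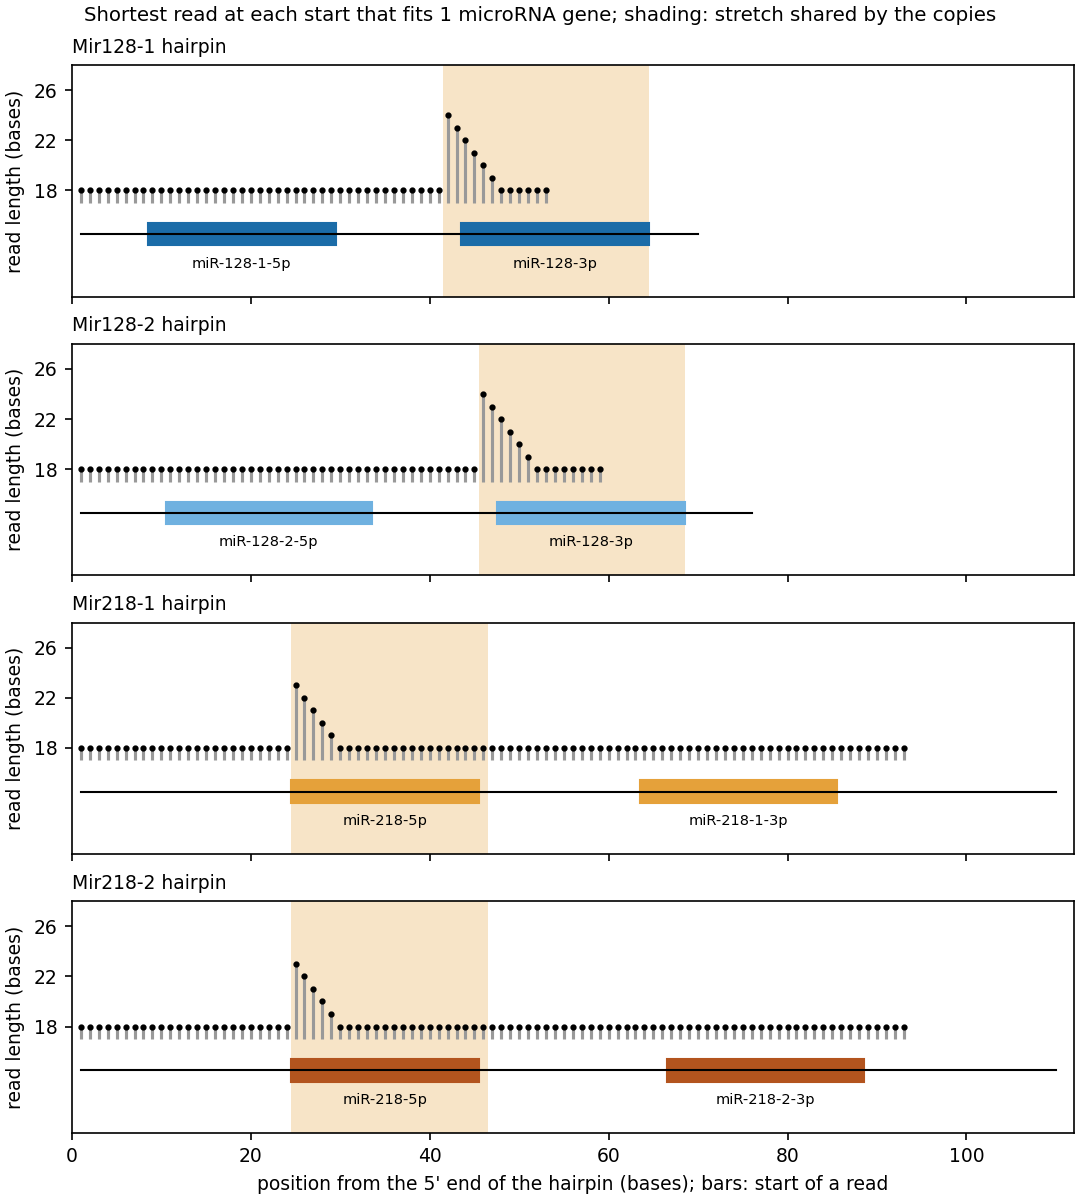
Map of the 4 hairpins, with position from the 5′ end in bases on the x axis. Each vertical bar stands at the start of a possible read and rises to the shortest length, from 18 bases, at which that read fits only 1 annotated microRNA gene; boxes are mature forms and shading is the stretch that both copies hold. Bars above 18 bases stand only at the first bases of the shaded stretch, which holds miR-128-3p or miR-218-5p, and reach 24 bases in the miR-128 copies and 23 in the miR-218 copies.

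Each hairpin lies on the strand of its host gene and overlaps no annotated exon of it (mm10, GENCODE M21). Mir128-1 (ENSMUSG00000065520.2) lies within R3hdm1 and Mir128-2 (ENSMUSG00000065441.2) within Arpp21, 2 related genes whose products carry an R3H domain, a nucleic acid binding domain. The ARPP21 protein is a cAMP-regulated phosphoprotein abundant in forebrain neurons. Mir218-1 (ENSMUSG00000065603.1) lies within Slit2 and Mir218-2 (ENSMUSG00000065583.1) within Slit3, which encode secreted guidance proteins that signal through Robo receptors. The nearest annotated exon upstream was 5.26 kb away for Mir128-1, 0.471 kb for Mir128-2, 0.403 kb for Mir218-1 and 4.18 kb for Mir218-2. The hairpins of the Slit genes lie far from the start of the host, at 241 kb in Slit2 and 496 kb in Slit3, against 99.1 kb in R3hdm1 and 117 kb in Arpp21. The libraries hold small RNA only, so the level of the host transcripts is not known here.

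The miR-128 copies were well above the miR-218 copies, and one copy led each pair: Mir128-1 among the miR-128 genes and Mir218-2 among the miR-218 genes. Mir128-1 had 19874 reads (7046 CPM) in replicate 2 and 25170 reads (7355 CPM) in replicate 1, where CPM is reads per 1000000 reads assigned to microRNA genes. Mir128-2 had 4080 reads (1447 CPM) in replicate 2 and 5242 reads (1532 CPM) in replicate 1. Mir218-2 had 1054 reads (374 CPM) in replicate 2 and 854 reads (250 CPM) in replicate 1. These 3 genes kept the same order in both libraries. Mir218-1 had the fewest, with 99 reads (35.1 CPM) in replicate 2 and 74 reads (21.6 CPM) in replicate 1. The exact 95% counting interval of its CPM was 28.5 to 42.7 in replicate 2 and 17.0 to 27.1 in replicate 1, so even the lowest member was far above what a count of 0 allows (3 reads), which is 1.06 CPM in replicate 2 and 0.877 CPM in replicate 1. Intervals and floors cover counting error only and treat every read as an independent count.

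Averaged over the libraries, Mir128-1 had 7201 ± 219 CPM and Mir128-2 1489 ± 60.3 CPM, while Mir218-2 had 312 ± 87.8 CPM and Mir218-1 28.4 ± 9.53 CPM (SD, n = 2 each). The SD was 3.03% of the mean for Mir128-1 and 4.05% for Mir128-2, against 28.2% for Mir218-2 and 33.6% for Mir218-1. The ranges of the 4 members over the 2 libraries did not overlap. Together the members took 0.890% of assigned reads in replicate 2 and 0.916% in replicate 1, of which the miR-218 pair took 0.0409% in replicate 2 and 0.0271% in replicate 1. No read was counted on the opposite strand at any of the 4 genes, and the column that disregards strand held the same counts.

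**Figure D2:**
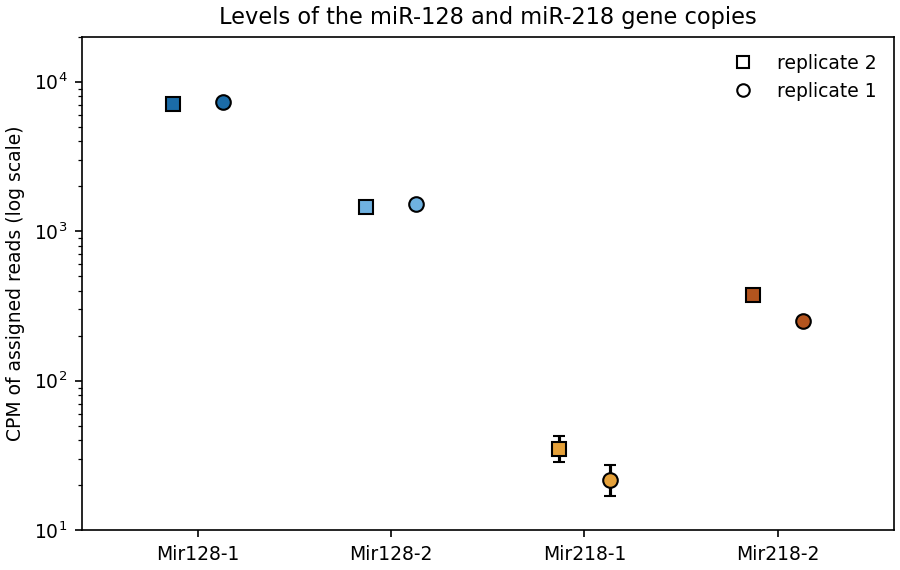
CPM of assigned reads on a log axis for each member in each library, with squares for replicate 2 and circles for replicate 1. Bars are exact 95% counting intervals, which are smaller than the symbol where not visible. The 2 libraries lie close together for Mir128-1 and Mir128-2, and the replicate 2 symbols lie above those of replicate 1 for both miR-218 copies.

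Among all 389 detected genes Mir128-1 held rank 28 by mean CPM, Mir128-2 rank 74, Mir218-2 rank 145 and Mir218-1 rank 265. None of the members was separated from its neighbours in that order: the range of the 2 libraries overlapped that of the gene above and of the gene below in each case. Mir128-1 stood between Mir149 and Mir382, and Mir128-2 between Mir370 and Mirlet7c-2. Mir218-2 stood between Mir421 and Mir212, an activity-regulated neuronal microRNA, and Mir218-1 between Mir34b and Mir1264. The genes share sequence with a copy elsewhere, in the sense of a stretch of 20 bases that also occurs in another microRNA gene, as do 81 of the detected genes. Within those 81, Mir128-1 was in place 3, Mir128-2 in place 15, Mir218-2 in place 31 and Mir218-1 in place 58.

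The genes with the most similar values were found by the Euclidean distance of log2 CPM over the 2 libraries. Nearest to Mir128-1 were Mir126a, an endothelial microRNA, at a distance of 0.13 and Mir221 at 0.20. Nearest to Mir128-2 were Mir370 at 0.0052 and Mirlet7c-2 at 0.10. Mir370 had 4092 reads in replicate 2 and 5253 in replicate 1, close to the reads of Mir128-2. Nearest to Mir218-2 were Mir702 at 0.21 and Mir501 at 0.22, and nearest to Mir218-1 were Mir451a, an erythroid microRNA, at 0.075 and Mir3057 at 0.16. With 2 libraries this likeness is one of level only.

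The division of reads between the copies was nearly the same in both libraries, although the leading copy differed between the pairs. Of the reads at the miR-128 genes, Mir128-1 held 83.0% in replicate 2 (19874 of 23954, exact 95% interval 82.5 to 83.4) and 82.8% in replicate 1 (25170 of 30412, 82.3 to 83.2). The difference of 0.204 percentage points had a 95% interval of -0.435 to 0.841 (Newcombe). Of the reads at the miR-218 genes, Mir218-1 held 8.59% in replicate 2 (99 of 1153, 7.03 to 10.4) and 7.97% in replicate 1 (74 of 928, 6.31 to 9.91). That difference was 0.612 percentage points, with an interval of -1.81 to 2.97. In levels, Mir128-1 was 4.87-fold above Mir128-2 in replicate 2 and 4.80-fold in replicate 1. Mir218-2 was 10.6-fold above Mir218-1 in replicate 2 and 11.5-fold in replicate 1. Fisher's exact test of copy by library found no difference between the libraries for either pair (two-sided, p = 0.54 for miR-128 and p = 0.63 for miR-218, both 0.63 after Benjamini-Hochberg adjustment over the 2 pairs). A shift smaller than these intervals was not detectable at this depth, and the wider one belongs to the pair with fewer reads.

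Other microRNAs with 2 gene copies show how far such a division can move between these libraries. Of 24 pairs on the list used, 16 had at least 100 reads in each library, the member pairs included. In the other 14 the share at the first copy differed between the libraries by 0.177 to 30.5 percentage points, with a median of 1.85. The largest was at Mir16-1, which held 74.2% of its pair's reads in replicate 2 and 43.7% in replicate 1. The share at Mirlet7a-1 was 57.4% in replicate 2 and 69.2% in replicate 1. The 95% interval of the difference held 0 for 5 of the 14 pairs, Mir129 and Mir29b among them, and for both member pairs. The leading copy took 50.9% to 99.8% of the reads of its pair in the other 14, with a median of 73.9%, and more than 80% in 6 of them. In the member pairs it took 82.9% for miR-128 and 91.7% for miR-218. The longest stretch shared by the copies ran from 22 to 28 bases over the 16 pairs, and the 22 bases of miR-218 are at the low end of that range.

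**Figure D3:**
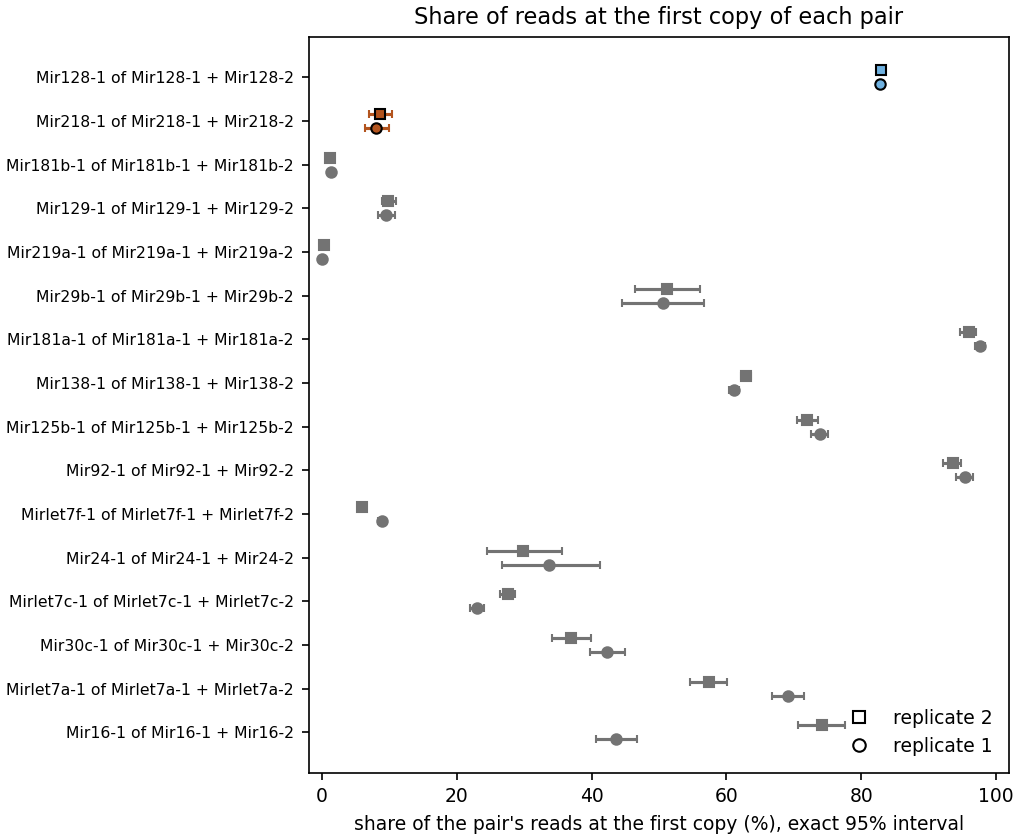
Share of a pair's reads at its first copy, in percent, for the 16 pairs with at least 100 reads in each library, with squares for replicate 2, circles for replicate 1 and exact 95% intervals. The member pairs stand at the top in colour and the others below in grey, ordered by the size of the difference. The symbols of the member pairs lie within 0.612 percentage points of each other, while those of Mir16-1 are 30.5 percentage points apart.

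Between the libraries, the miR-218 copies were both higher in replicate 2 and the miR-128 copies both slightly lower. On counts scaled by TMM, a method that equalises the bulk of genes, the log2 ratio of replicate 2 over replicate 1 was 0.48 for Mir218-2 (95% interval 0.35 to 0.62) and 0.60 for Mir218-1 (0.15 to 1.05). These are 1.40-fold and 1.52-fold higher. The log2 ratio was -0.16 for Mir128-1 (-0.19 to -0.13) and -0.18 for Mir128-2 (-0.24 to -0.12). The ratios of the copies of a pair lay within each other's intervals, and copies that share sequence are not separate evidence. All 4 passed an exact binomial test with Benjamini-Hochberg adjustment over the 389 detected genes, with adjusted p = 2.01e-31 for Mir128-1, 3.58e-09 for Mir128-2, 0.0117 for Mir218-1 and 8.44e-13 for Mir218-2. This test compares 2 libraries beyond counting error and says nothing of conditions. It called 67.6% of all detected genes, 33.9% as higher and 33.7% as lower, so passing it does not set the members apart.

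In size, the differences of the miR-128 copies were among the smaller ones. The median absolute log2 ratio over detected genes was 0.52. Of the 389 genes, 58 had a smaller absolute ratio than Mir128-1 and 72 a smaller one than Mir128-2. The miR-218 copies lay near the middle, with 184 genes below Mir218-2 and 220 below Mir218-1. The edgeR exact test, which takes its error from the spread between the 2 libraries, called 0.514% of detected genes (2 of 389) and none of the members, whose unadjusted p lay between 0.507 and 0.851 and adjusted p at 1; 23 genes (5.91%) had an unadjusted p under 0.05. Its error holds the difference under test. With library totals in place of TMM the ratios of the miR-128 copies shrank to -0.062 and -0.083, still past the binomial threshold.

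**Figure D4:**
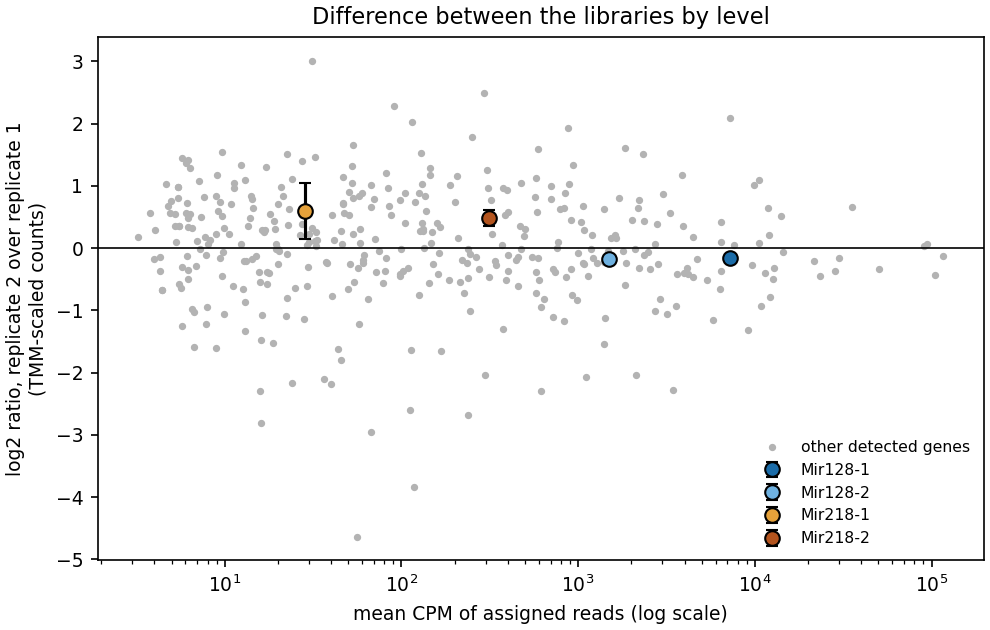
Log2 ratio of replicate 2 over replicate 1 on TMM-scaled counts, against mean CPM on a log axis, for the 389 detected genes. Coloured circles are the 4 members with exact 95% intervals and grey dots the other genes. The miR-128 copies sit just under the line at 0 and the miR-218 copies above it, inside the cloud of other genes.

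The balance between the pairs differed, in a comparison that needs no scaling because both pairs are counted in the same library. The miR-128 genes together had 20.8 reads for each read at the miR-218 genes in replicate 2 and 32.8 in replicate 1. The ratio of these balances was 0.634, with an exact 95% interval of 0.580 to 0.693 that covers counting error only. Differences beyond counting error were common between these libraries. The exact binomial test called 67.6% of the 389 detected genes, and the median absolute log2 ratio over all 389 was 0.52. How often the balance of other gene sets differs as much was not tested, so this ratio does not set the members apart. Markers of other cells also differed between the libraries. The epithelial and sensory list, the miR-200 and miR-183 clusters, summed to 111 CPM in replicate 2 and 712 CPM in replicate 1, with 6 of its 8 genes detected, all lower in replicate 2. The 2 mural markers Mir143 and Mir145a summed to 5693 CPM in replicate 2 and 13800 CPM in replicate 1. The choroid plexus and ependyma list, with 5 of 5 detected, summed to 1638 CPM in replicate 2 and 3416 CPM in replicate 1. Most of that sum was Mir34c, at 750 CPM in replicate 2 and 2045 CPM in replicate 1, and Mir204. Of this list 3 genes were lower, Mir449a was higher (log2 ratio 0.53) and Mir211 was not called. The sums of the other lists differed less, but they add genes that moved in opposite directions in the neuron, astrocyte and oligodendrocyte lists. The 7 neuron markers, 4 of them detected, summed to 25069 CPM in replicate 2 and 23882 CPM in replicate 1. Of these 4, Mir132 was lower in replicate 2 and 3 were higher. The astrocyte list summed to 35518 CPM in replicate 2 and 38440 CPM in replicate 1, with 2 genes higher and 3 lower. Among its lower genes were Mir26a-1 (log2 ratio -4.64) and Mir26a-2 (-2.10). In replicate 2 the oligodendrocyte list summed to 6671 CPM, the microglia and leukocyte list to 4315, the endothelial list to 7465 and the erythroid list to 59.9 CPM. In replicate 1 these sums were 5027 CPM for the oligodendrocyte list, 4890 for the microglia and leukocyte list, 7871 for the endothelial list and 47.6 CPM for the erythroid list. In the oligodendrocyte list Mir338 was higher in replicate 2 (log2 ratio 0.87) and Mir219a-2 lower (-0.26). The microglia and leukocyte sum holds 5 of 6 entries, since the table has no gene named Mir142a. Of those 5, 4 were lower in replicate 2 and 1 was not called. Mir142, left out of that sum, had 169 CPM in replicate 2 and 317 CPM in replicate 1. Unmapped reads were 22.6% in replicate 2 and 16.6% in replicate 1. The part of these in the members' ratios was not tested. In tissue RNA, fewer cells of a type and less RNA per cell cannot be told apart.

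The neuronal microRNAs listed beside the members moved in both directions. Of 16 genes without the members, 12 were detected, of which 7 were higher in replicate 2, 4 lower and 1 not called, with a median log2 ratio of 0.27. Over all detected genes 33.9% were higher and 33.7% lower, with a median of 0.053. Together they took 2.94% of assigned reads in replicate 2 and 2.91% in replicate 1. Mir132, induced by CREB in active neurons, had 11794 CPM in replicate 2 and 13708 CPM in replicate 1 and was lower. Mir212, from the same locus, had 416 CPM in replicate 2 and 198 CPM in replicate 1 and was higher, with a log2 ratio of 0.97. Mir137, a microRNA of neuronal maturation, had 6832 CPM in replicate 2 and 5986 CPM in replicate 1, the level nearest to Mir128-1 in the list. The other neuronal genes with 2 copies, Mir138 and Mir129, were higher in replicate 2 at both copies, with log2 ratios of 0.56 and 0.45 for Mir138-1 and Mir138-2 and of 0.68 and 0.63 for Mir129-1 and Mir129-2. The highest log2 ratio of the list was 1.26 at Mir153, and the lowest were -1.34 at Mir9-1 and -1.01 at Mir383. Each gene for miR-124, a defining microRNA of neurons, holds a stretch of 20 bases that also occurs in another microRNA gene. Of these genes only Mir124a-1 had reads assigned, 5 per library, and Mir124a-2 and Mir124a-3 stood at 0.

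Motor neurons, where miR-218 is known to be very high, lie mostly in the hindbrain and spinal cord, which express Hox cluster microRNAs. Of the Hox list 3 of 5 genes were detected, and the list summed to 124 CPM in replicate 2 and 226 CPM in replicate 1. Mir10a (log2 ratio -0.76) and Mir10b (-1.62) were lower in replicate 2, and Mir615 was not called. Mir196a-1 had 0 reads in replicate 2 and 6 in replicate 1, and Mir196a-2 had 1 read in replicate 2 and 2 in replicate 1. Their part in the values of the miR-218 copies was not tested.

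The values of other microRNAs that lie in host genes, mostly of paralogous families, are given beside the members without a test between the groups. The list held 14 genes, among them the Mir26 genes in the Ctdsp family, phosphatases that act on RNA polymerase II, and Mir103 and Mir107 in the pantothenate kinase genes. Of these, 12 were detected, with 1 higher in replicate 2, 8 lower and 3 not called, and a median log2 ratio of -0.61. Over all 389 detected genes 33.9% were higher and 33.7% lower, with a median of 0.053. Mir26b had 7825 CPM in replicate 2 and 13945 CPM in replicate 1. Mir26a-1 had 13 reads in replicate 2 and 366 in replicate 1, and Mir26a-2 had 41 in replicate 2 and 199 in replicate 1. The log2 ratios of the miR-26a copies were -4.64 and -2.10, against 0.60 and 0.48 for the miR-218 copies and -0.16 and -0.18 for the miR-128 copies. Mir107 had 2350 CPM in replicate 2 and 2773 CPM in replicate 1, and its log2 ratio of -0.34 was the closest in size to those of the miR-128 copies among the lower genes called.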

How the data were processed

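Small RNA was sequenced in 2 libraries of 1 group. For each library the authors deposited raw counts of reads per microRNA gene in 3 columns (either strand, the gene's own strand, the other strand). The assembly was mm10 with GENCODE M21, per the deposited text notes. The sources used here do not give the aligner, counter or trimming. Counts on the gene's own strand were used. The 4 rows that name no gene held 67.0% of reads in replicate 2 and 64.8% in replicate 1 and were left out, leaving 2820468 assigned reads in replicate 2 and 3421977 in replicate 1 as library sizes for CPM. Symbols for all 2202 IDs came from GENCODE M21, and sequences from RefSeq (GRCm38.p6, the same build). Size factors came from edgeR 4.0.16 (TMM) and, as an alternative, DESeq2 1.42.0, in R 4.3.3. The exact binomial test was run over all detected genes with a threshold of 0.05. It was checked on simulated counts with counting error only, as the test assumes, so that check does not cover other spread between libraries. A quasi-likelihood test was not run, since 1 group gives no contrast between conditions. A comparison of 2 single libraries leaves no residual degrees of freedom for it. Identity was computed with Biopython 1.88 and folding energy with ViennaRNA 2.7.2. Only annotated microRNA genes were searched for copies. The genes named were the members, the 2 nearest genes to each, and examples from the lists. The members and lists were chosen with earlier results of these data known.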

Additional observations from a re-analysis of the deposited data

How the results depend on the processing

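With all reads as library size, mean CPM was 2458 for Mir128-1, 508 for Mir128-2, 9.60 for Mir218-1 and 106 for Mir218-2. With the column that disregards strand it was 7706 for Mir128-1 and 1594 for Mir128-2, and the ranks by mean CPM were 25 for Mir128-1, 67 for Mir128-2, 133 for Mir218-2 and 244 for Mir218-1. Among the 308 detected genes without shared sequence plus the members, the ranks were 26, 61, 117 and 211 in that order of genes. These shifts follow from the larger or smaller set of reads or genes counted. The log2 ratios kept their direction and their call under library totals, DESeq2 size factors, all reads, the other column and no filter on low counts. Under the edgeR exact test no member passed, with log2 ratios of -0.16 for Mir128-1, -0.18 for Mir128-2, 0.60 for Mir218-1 and 0.48 for Mir218-2, and the count of genes called was 2 in place of 263. Leaving out a library gave 82.8% to 83.0% for the share at Mir128-1 and 7.97% to 8.59% for Mir218-1. Depth limits Mir218-1 most, with under 100 reads in each library. No paired analysis was possible because the libraries form 1 group.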
